A study of Mus musculus with 4 samples.

Results

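The nuclear-encoded genes of oxidative phosphorylation were examined in MC38 cells, a mouse colon carcinoma line, by symbol: those starting with Nduf followed by a, b, c, s or v (complex I), the Sdh genes a to d (complex II), those starting with Uqcr (complex III), with Cox4 to Cox8 (complex IV) or with Atp5 (complex V). This gave 94 of the 26322 genes listed, 46 in complex I, 4 in complex II, 9 in complex III, 18 in complex IV and 17 in complex V. By their known roles, 82 of them encode structural subunits or isoforms of subunits, and 12 do not: 8 assembly factors of complex I (Ndufaf1 to Ndufaf8), the supercomplex factor Cox7a2l, the coupling factor Atp5s and 2 pseudogenes, Atp5c1-ps and Uqcrh-ps1. Ndufa4 was kept with complex I by its symbol, although its product is known as a complex IV subunit. The 4 libraries came from the same line: 2 from cells electroporated with Cas9 and a non-targeting guide (sgNT, labelled WT) and 2 from cells given a guide against Cbfb (sgCbfb, labelled CbfbKO). Cells were harvested 1 week or more later, and whether the edited cells were a pool or a clone is not given in the sources used here. Cbfb encodes CBFβ, the partner that the RUNX transcription factors need for stable DNA binding, and the comparison asks which transcripts differ in its absence.

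Oxidative phosphorylation takes place at the inner mitochondrial membrane. Complexes I and II pass electrons from NADH and succinate to coenzyme Q, complex III passes them on to cytochrome c, and complex IV hands them to oxygen, while complexes I, III and IV pump protons. Complex V, the ATP synthase, lets the protons back and makes ATP. Complexes I, III, IV and V hold subunits from both the nuclear and the mitochondrial genome, so that the nuclear transcripts must be matched to mitochondrial ones. The transcription factors NRF1, GABP (of the ETS family) and YY1, with coactivators of the PGC-1 family, are known to drive many of these genes.

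The libraries held between 3189035 and 3907936 reads counted on genes, recovered from the deposited log2 CPM (read counts scaled to a common library total). Cbfb was at 6.45 and 6.43 log2 CPM in sgNT and 5.03 and 5.31 in sgCbfb cells, with a log2 fold change (sgCbfb minus sgNT) of -1.27 (SE, the standard error, 0.122, limma adjusted p = 1.76e-07). Its transcript was thus lower under the Cbfb guide but still present. Its protein, which the paper checked by immunoblot in MC38 cells, was not measured here. The fold change stayed between -1.12 and -1.41 in every alternative fit, and the call was lost in 3 of them that called 0 genes in all (no mean-variance trend, adjusted p = 0.115 by limma, and without sgCbfb library 1 or without library 2, 0.267 and 0.193). The epithelial markers expected of a carcinoma were at or near 0: over Epcam, Krt8, Krt18, Krt19, Krt20, Cdh1, Vil1 and Cdx2 the summed level was between 1.57 and 1.80 CPM in every library, and Krt18 and Vil1 had 0 reads. Leukocyte markers summed to at most 1.54 CPM and endothelial markers to at most 0.600 CPM. Of 6 fibroblast markers, 2 (Lum and Thy1) had 0 reads, and the list summed to 71.6 and 66.3 CPM in sgNT and 80.3 and 83.4 CPM in sgCbfb cells, with 0 of its 4 tested genes past the threshold. Pdgfra came nearest, at a log2 fold change of 0.53 (limma adjusted p = 0.0515), while Dcn was at -0.17. Pdgfrb and Col1a1, at 0.82 and 0.41, had between 4 and 16 reads.

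Promoter sequence was looked at first for the letters these regulators are known to favour. The window was the 250 bases before the RefSeq start (GRCm38.p6) of 76 members, in 81 windows. Both strands were searched for GCATGCG (NRF1), CCGGAAG (ETS), GATGGCG (YY1), GGGCGG (SP1) and, for RUNX, TGTGGT or TGCGGT. The NRF1 letters lay in 12.3% of the members' windows against 3.02% of all 32851 windows, and the ETS letters in 17.3% against 6.91%. The RUNX letters lay in 19.8% against 18.6%, the YY1 letters in 4.94% against 2.18% and the SP1 letters in 38.3% against 32.7%. The 10 members with the NRF1 letters are shown because they carry the clearest shared sequence, in capitals. Where the letters and their reverse complement overlap, the capitals span both. The Atp5j site lies before the start used for its window but within the full span annotated for the gene (84827871 to 84835857 on chromosome 16).
Ndufa8 (chr2:36049339-36049357, minus strand): tcgctggagaCGCATGCGc
Ndufa11 (chr17:56717693-56717720, plus strand): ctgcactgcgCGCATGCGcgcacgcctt
Ndufa6 (chr15:82354358-82354384, minus strand): ccgcggtagaGCATGCGcattgcagag
Ndufaf4 (chr4:24897961-24897988, plus strand): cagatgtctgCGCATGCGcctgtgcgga
Sdhb (chr4:140961207-140961233, plus strand): agcccagtggGCATGCGccctacgggc
Cox6a1 (chr5:115349102-115349129, minus strand): aggaacggggCGCATGCGcgctctcgct
Atp5g2 (chr15:102671071-102671098, minus strand): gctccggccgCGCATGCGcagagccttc
Atp5j (chr16:84835106-84835133, minus strand): ggccagaataCGCATGCGtacagtgcag
Atp5k (chr5:108434431-108434458, minus strand): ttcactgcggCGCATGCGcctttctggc
Atp5l (chr9:44920966-44920992, minus strand): aaccaataaCGCATGCGcatttccccc

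Of the 14 members with the RUNX letters, Ndufs7, a core subunit of complex I, had the most matches, and its 3 sites are shown for that reason, with the RUNX letters or their reverse complement in capitals. They lie before the start used for the window but within the full span annotated for the gene (80249105 to 80256794 on chromosome 10), which begins further upstream.
Ndufs7 (chr10:80249223-80249248, plus strand): cccagggacgACCACAgcgacttttt
Ndufs7 (chr10:80249332-80249357, plus strand): cgcggacgcgACCACAggtataaagc
Ndufs7 (chr10:80249367-80249392, plus strand): ccactcggctTGTGGTgcgggtttcc

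These letters describe the windows and do not show binding. The median log2 fold change was 0.0081 over the 10 tested members with the NRF1 letters and 0.051 over the 64 without them. It was 0.051 over the 13 tested members with the RUNX letters and 0.037 over the 61 without them.

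In MC38 cells the transcripts of oxidative phosphorylation were abundant and nearly level between sgNT and sgCbfb cells. Summed over all 94 genes, they took 1.58% and 1.60% of the counted reads in sgNT and 1.67% and 1.57% in sgCbfb libraries. The summed level was 15829 and 16008 CPM in sgNT and 16725 and 15735 CPM in sgCbfb cells. A bulk level averages over cells, so fewer cells with a transcript and less of it per cell cannot be told apart. The sgCbfb libraries lay above and below both sgNT libraries, and their mean was 1.02 times that of sgNT. The sgCbfb library 1, which had the highest sum, was also the deepest and gave the smallest share of its reads to the ribosomal RNA gene Rn45s, 11.3% against 13.0% to 13.9% in the others. The part of these properties in the sums was not tested beyond the following scaling. With the ribosomal RNA genes left out of the totals, the median log2 fold change of the tested members went from 0.036 to 0.013, and that of all tested genes from 0.039 to 0.018.

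By complex, the summed levels ran in the same order in every library, from complex I over V, IV and III to II. Complex I summed to 4772 and 4773 CPM in sgNT and 5088 and 4786 CPM in sgCbfb cells. Complex V gave 4572 and 4707 CPM in sgNT and 4769 and 4579 CPM in sgCbfb cells. Only for complex I did both sgCbfb libraries lie above both sgNT libraries, and sgCbfb library 2 did so by a margin far smaller than the gap between the sgCbfb libraries. Complex IV gave 4259 and 4270 CPM in sgNT and 4532 and 4155 CPM in sgCbfb cells. Complex III gave 1719 and 1734 CPM in sgNT and 1816 and 1717 CPM in sgCbfb cells. Complex II, with 4 genes, gave 507 and 524 CPM in sgNT and 520 and 497 CPM in sgCbfb cells. The ratios of the group means ran from 0.986 (complex II) to 1.03 (complex I).

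**Figure D1:**
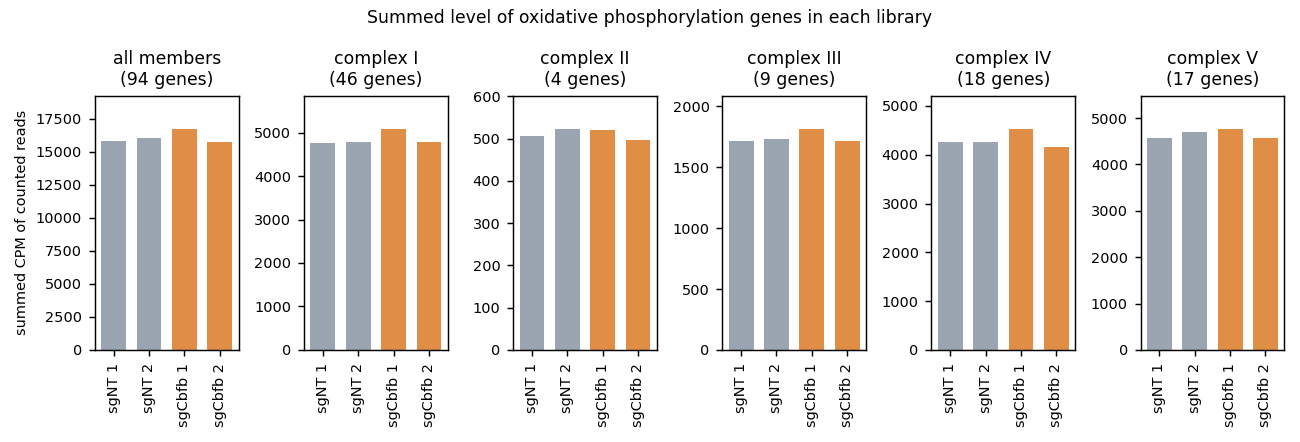
Each bar is a library, its height the summed CPM of counted reads over the genes of a complex (separate vertical axes, each starting at 0), with sgNT in grey and sgCbfb in orange. The sgCbfb library 1 is the highest for all 94 genes (16725 CPM) and sgCbfb library 2 the lowest (15735 CPM).

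Of the 94 genes, 87 passed the filter on low values (2 or more libraries with a log2 CPM of 0 or above) and 7 did not. Tested with limma on the deposited log2 values over all 12207 genes that passed, 0 of the 87 rose and 0 fell in sgCbfb cells at an adjusted p under 0.05, where 2.83% of all tested genes were called, 1.57% higher and 1.25% lower. At an unadjusted p under 0.05 there were 15 members (17.2%), against 14.9% of all tested genes, and voom on the recovered reads, scaled by TMM (the trimmed mean of M-values), also called 0. The groups did not overlap for 38 members (43.7%), against 44.1% of all tested genes. Positive log2 fold changes made up 53 of the 87, with a median of 0.036, beside 57.0% and a median of 0.039 over all tested genes. The middle quartiles of the members lay between -0.069 and 0.079, and that of all tested genes between -0.12 and 0.21.

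For most of these genes the values bound the size of the difference between these libraries. The members were well covered, with a median level of 7.02 log2 CPM against 4.40 for all tested genes, and 77 of them had a mean of at least 5 log2 CPM and at least 99 reads in every library. Their median standard error was 0.088, against 0.192 for all tested genes. For 74 of the 87, the 95% interval of the log2 fold change lay wholly between -0.5 and 0.5, that is between 70.7% and 141% of the sgNT level, while 40.9% of all tested genes had such an interval. The 13 exceptions were Ndufa11, Ndufb2, Ndufs5, Sdhd, Ndufaf1, Ndufaf3, Ndufaf6, Ndufaf7, Cox6a2, Cox7a1, Cox7b2, Atp5g2 and Atp5s, so that 4 of the 8 complex I assembly factors and all 3 tested members with mainly tissue-restricted roles were among them. With 2 libraries in a group, permuting the libraries of 1 gene in an exact test gives no p under 0.333, so the calls rest on the spread that limma shares over genes. The sources used here do not say that the libraries came from separate cultures, so the spread behind the calls and the intervals may be technical.

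**Figure D2:**
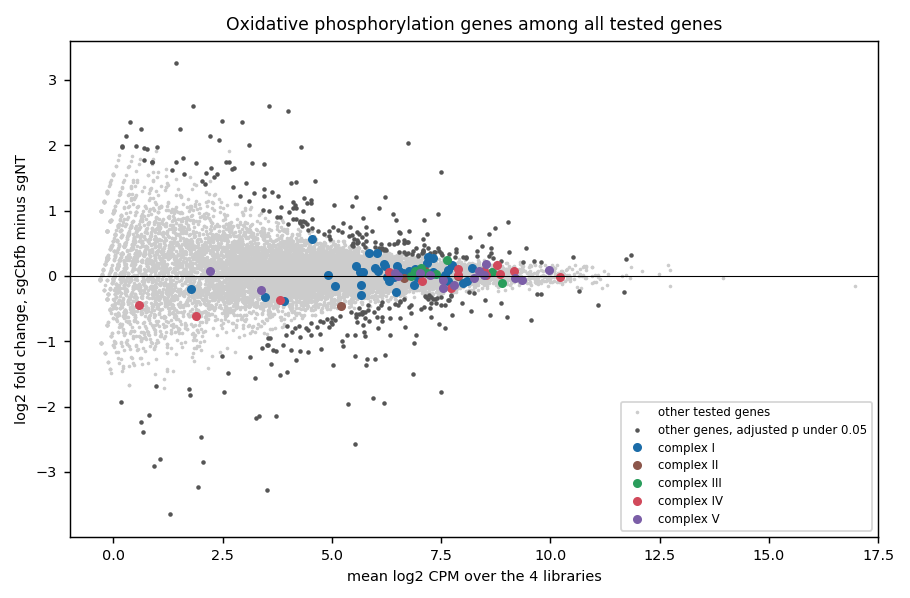
Each point is a tested gene, with the mean log2 CPM of the 4 libraries on the horizontal axis and the log2 fold change (sgCbfb minus sgNT) on the vertical axis; the oxidative phosphorylation genes are coloured by complex and other genes past the threshold are dark grey. Most coloured points sit at high levels (median 7.02) and close to 0 (median 0.036), within the cloud of genes that were not past the threshold.

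Complex I oxidises NADH. Its 7 nuclear core subunits, which hold the flavin and the iron-sulphur clusters, had 0 calls. Their log2 fold changes ran from -0.16 (Ndufs3) to 0.11 (Ndufv2), and the 95% interval of each lay within -0.5 and 0.5. Both extremes leaned on an sgNT library, since Ndufs3 was at -0.076 without sgNT library 2 and Ndufv2 at -0.0069 without sgNT library 1. Ndufv1, the subunit that binds NADH and the flavin, was at 8.04 and 8.05 log2 CPM in sgNT and 7.94 and 7.94 in sgCbfb cells, a difference of -0.11 (SE 0.068, limma adjusted p = 0.508). Its groups did not overlap, but the difference was small and not past the threshold. Ndufv2, with the highest core value, had 359 and 416 reads in sgNT and 473 and 406 in sgCbfb libraries, and its groups overlapped in log2 CPM.

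The 30 tested accessory members of complex I are those with the letters a, b, c, s or v that are neither core nor assembly factors. They include Ndufa4, which was kept here by its symbol. Accessory subunits surround the core and are needed for its assembly and stability. Of the 30 members, 0 passed the test, 23 had a positive log2 fold change and 15 had both sgCbfb libraries above both sgNT libraries. Over all tested genes 57.0% were positive and 27.4% lay wholly higher. The signs leaned on sgCbfb library 1. Without it, the median log2 fold change of all tested complex I members went from 0.053 to -0.0014. Ndufa8, on chromosome 2 (36036324 to 36049338, GRCm38.p6), had the smallest adjusted p of all members. It encodes a twin-cysteine subunit on the intermembrane space side, and its NRF1 letters are printed above. Its log2 CPM was 7.13 and 6.98 in sgNT and 7.39 and 7.29 in sgCbfb cells. The log2 fold change was 0.29 (SE 0.085, 95% interval 0.11 to 0.46, limma adjusted p = 0.0689), which missed the threshold.

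Ndufb3, a small membrane-arm subunit on chromosome 1 (58586397 to 58595964), was at 7.11 and 7.21 log2 CPM in sgNT and 7.52 and 7.36 in sgCbfb cells. The log2 fold change was 0.28 (SE 0.083, limma adjusted p = 0.0774). Ndufa11, a membrane-arm subunit on chromosome 17 (56717762 to 56724248), was at 5.95 and 5.78 log2 CPM in sgNT and 6.23 and 6.21 in sgCbfb cells. The log2 fold change was 0.36 (SE 0.110, 95% interval 0.13 to 0.58, limma adjusted p = 0.0876). In all 3 genes both sgCbfb libraries were above both sgNT libraries, none passed the threshold, and leaving out a single library kept the differences positive, between 0.19 and 0.44 on the log2 scale. With a stricter minimum of 5 CPM, which left 9549 genes and called 5.33% of them, these 3 genes and Uqcr10 of complex III were past the threshold, with adjusted p-values from 0.0251 (Ndufa8) to 0.0472 (Uqcr10) by limma. With the replicate number as a block, where 4.38% of all tested genes passed, the same 3 complex I genes were called (adjusted p from 0.0339 to 0.0487) but not Uqcr10.

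Differences in the opposite direction were seen in other accessory subunits. Ndufb6, a membrane-arm subunit, was at 6.62 and 6.57 log2 CPM in sgNT and 6.37 and 6.32 in sgCbfb cells, and Ndufs5 at 5.77 and 5.86 in sgNT and 5.61 and 5.43 in sgCbfb cells. Both groups were separate in each gene, with limma adjusted p-values of 0.186 and 0.25. The accessory members with the highest levels, Ndufb8 and Ndufa2, differed little. Ndufb8 was at 8.16 and 8.12 log2 CPM in sgNT and 8.27 and 8.23 in sgCbfb cells, and Ndufa2 at 8.10 and 8.14 in sgNT and 8.15 and 7.95 in sgCbfb cells.

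The 8 assembly factors of complex I, which help to build it and are not part of the finished enzyme, had 2 positive and 6 negative log2 fold changes, with a median of -0.11 and 0 past the threshold. Ndufaf7, a methyltransferase of the mitochondrial matrix, had the highest log2 fold change of all members. It had 55 and 70 reads in sgNT and 120 and 79 in sgCbfb libraries, or 4.07 and 4.43 log2 CPM in sgNT and 4.97 and 4.66 in sgCbfb cells. The difference was 0.57 (SE 0.188, 95% interval 0.18 to 0.95, limma adjusted p = 0.121), with groups that did not overlap. Ndufaf6 had the most negative value of the 8, -0.38 (SE 0.220, limma adjusted p = 0.442), on 60 and 52 reads in sgNT and 52 and 38 in sgCbfb libraries.

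Complex II, succinate dehydrogenase, also belongs to the tricarboxylic acid cycle and is the complex with no mitochondrially encoded subunit. Its 4 genes had 0 calls. Sdha, the flavoprotein, was at 7.07 and 7.12 log2 CPM in sgNT and 7.23 and 7.11 in sgCbfb cells. Sdhb, the iron-sulphur subunit, was at 7.93 and 7.84 in sgNT and 7.95 and 7.81 in sgCbfb cells. The groups of both genes overlapped, and their log2 fold changes were 0.080 (from 0.016 to 0.14 with single libraries left out) and -0.0057.

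Of the membrane anchors, Sdhc was at 6.60 and 6.70 log2 CPM in sgNT and 6.59 and 6.66 in sgCbfb cells, again overlapping. Sdhd, on chromosome 9 (50596340 to 50603849), was the least expressed of the 4, with 116 and 178 reads in sgNT and 105 and 113 in sgCbfb libraries. Its log2 CPM was 5.12 and 5.75 in sgNT and 4.78 and 5.17 in sgCbfb cells. The sgNT library 2 stood far above the other 3 values, and the groups overlapped. The log2 fold change was -0.46 (SE 0.177, 95% interval -0.83 to -0.096, limma adjusted p = 0.190). It was -0.14 without sgNT library 2 and -0.78 (limma adjusted p = 0.0357) without sgNT library 1, a fit that called 1.65% of all tested genes, and it was -0.27 without sgCbfb library 1 and -0.66 without sgCbfb library 2. The size thus rested on which libraries were used. With 1 library left in a group, its spread was assumed to be that of the other group and of genes of like level. The replicate block also called Sdhd (limma adjusted p = 0.0435).

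Complex III, which moves electrons from coenzyme Q to cytochrome c, had 8 tested members and 0 calls, with a median log2 fold change of 0.053. Uqcr10, a small subunit on chromosome 11 (4701968 to 4704344), was at 7.51 and 7.51 log2 CPM in sgNT and 7.83 and 7.68 in sgCbfb cells. The log2 fold change was 0.24 (SE 0.076, 95% interval 0.082 to 0.40, limma adjusted p = 0.0993). Uqcrh, the hinge subunit that binds near cytochrome c, was at 8.95 and 8.92 in sgNT and 8.85 and 8.81 in sgCbfb cells, with a log2 fold change of -0.11 (limma adjusted p = 0.431). These genes thus had opposite signs within the same complex, each with separate groups. Uqcrc1, a core protein, was at 7.09 and 6.88 log2 CPM in sgNT and 7.15 and 7.06 in sgCbfb cells. Uqcrq was at 8.62 and 8.63 in sgNT and 8.70 and 8.66 in sgCbfb cells, while Uqcrh-ps1 had 0 reads.

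Complex IV, cytochrome c oxidase, had 14 tested members and 0 calls, with a median log2 fold change of 0.012. Cox8a, a small membrane subunit on chromosome 19 (7215158 to 7217616), had the highest level of all 94 genes, with between 3619 and 4773 reads. Its log2 CPM was 10.22 and 10.23 in sgNT and 10.26 and 10.15 in sgCbfb cells, which left a log2 fold change of -0.022 with a 95% interval of -0.13 to 0.088. Cox6c was at 9.12 and 9.15 log2 CPM in sgNT and 9.29 and 9.12 in sgCbfb cells. Both genes overlapped between the groups. Cox7a2, the ubiquitous form of subunit VIIa, was at 8.77 and 8.62 in sgNT and 8.93 and 8.80 in sgCbfb cells (log2 fold change 0.17, limma adjusted p = 0.214; 0.093 without sgNT library 2). Cox7b was at 7.75 and 7.88 in sgNT and 7.75 and 7.50 in sgCbfb cells (log2 fold change -0.19, limma adjusted p = 0.278; from -0.31 to -0.062 with single libraries left out).

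Several complex IV subunits have a ubiquitous form and a form known from muscle, testis, lung or other tissues. MC38 cells used the ubiquitous forms. Cox4i1 had between 1139 and 1501 reads and the lung form Cox4i2 had 0 in every library. Cox8a was highly expressed and its relatives Cox8b and Cox8c had 0 reads. Cox6b1 had between 746 and 935 reads and the testis form Cox6b2 had 1 read in 1 sgCbfb library. A count of 0 allows up to 3 reads, that is 0.768 to 0.941 CPM depending on the library, for counting error only. Ndufa4l2, a relative of Ndufa4 known as a hypoxia-induced gene, also had 0 reads.

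Other restricted forms were detected at low levels. Cox7b2, a testis form of subunit VIIb on chromosome 5 (71442823 to 71548205), had 50 and 53 reads in sgNT and 42 and 41 in sgCbfb libraries. Its log2 fold change was -0.36, with a 95% interval of -0.84 to 0.11 (limma adjusted p = 0.5; -0.24 without sgCbfb library 1). Cox6a2, the heart and muscle form of subunit VIa, had 13 and 14 reads in sgNT and 8 and 9 in sgCbfb libraries, against between 1389 and 1936 reads of its ubiquitous relative Cox6a1. It had the most negative log2 fold change of all members, -0.62, with a wide 95% interval of -1.42 to 0.18 (limma adjusted p = 0.499). Cox7a1, the muscle form of subunit VIIa, had between 2 and 5 reads. For Cox7b2 and Cox6a2 the groups were separate, with sgCbfb lower, but neither difference passed the threshold.

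Complex V, the ATP synthase, had 16 tested members and 0 calls, with a median log2 fold change of 0.0054. In its F1 head, where ATP is made, Atp5b (the catalytic beta subunit) was at 9.37 and 9.41 log2 CPM in sgNT and 9.38 and 9.28 in sgCbfb cells, which overlapped. Atp5a1, Atp5c1, Atp5d and Atp5e had log2 fold changes between -0.068 and 0.022, and with single libraries left out between -0.12 and 0.11. The proton-carrying c ring is encoded by 3 genes whose mature proteins are the same. Atp5g3, the most expressed, was at 9.88 and 9.95 log2 CPM in sgNT and 10.03 and 9.97 in sgCbfb cells (log2 fold change 0.091, limma adjusted p = 0.469; from 0.057 to 0.12 with single libraries left out). Atp5g1 was at 7.85 and 7.90 in sgNT and 7.76 and 7.69 in sgCbfb cells (log2 fold change -0.14, limma adjusted p = 0.351), and Atp5g2 had only between 28 and 38 reads. The summed level of the 3 genes was 1180 and 1234 CPM in sgNT and 1274 and 1218 CPM in sgCbfb cells, which overlapped.

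In the membrane part and stalk of the enzyme, Atp5j2 (subunit f), on chromosome 5 (145183704 to 145191541), was at 8.43 and 8.43 log2 CPM in sgNT and 8.60 and 8.63 in sgCbfb cells. The log2 fold change was 0.18 (SE 0.063, 95% interval 0.052 to 0.31, limma adjusted p = 0.139). Atp5h (subunit d of the stalk) was at 7.56 and 7.69 in sgNT and 7.44 and 7.44 in sgCbfb cells, with a log2 fold change of -0.18 (limma adjusted p = 0.253; -0.11 without sgNT library 2). The libraries of each group were separate in both genes, in opposite directions, and neither passed the threshold.

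**Figure D3:**
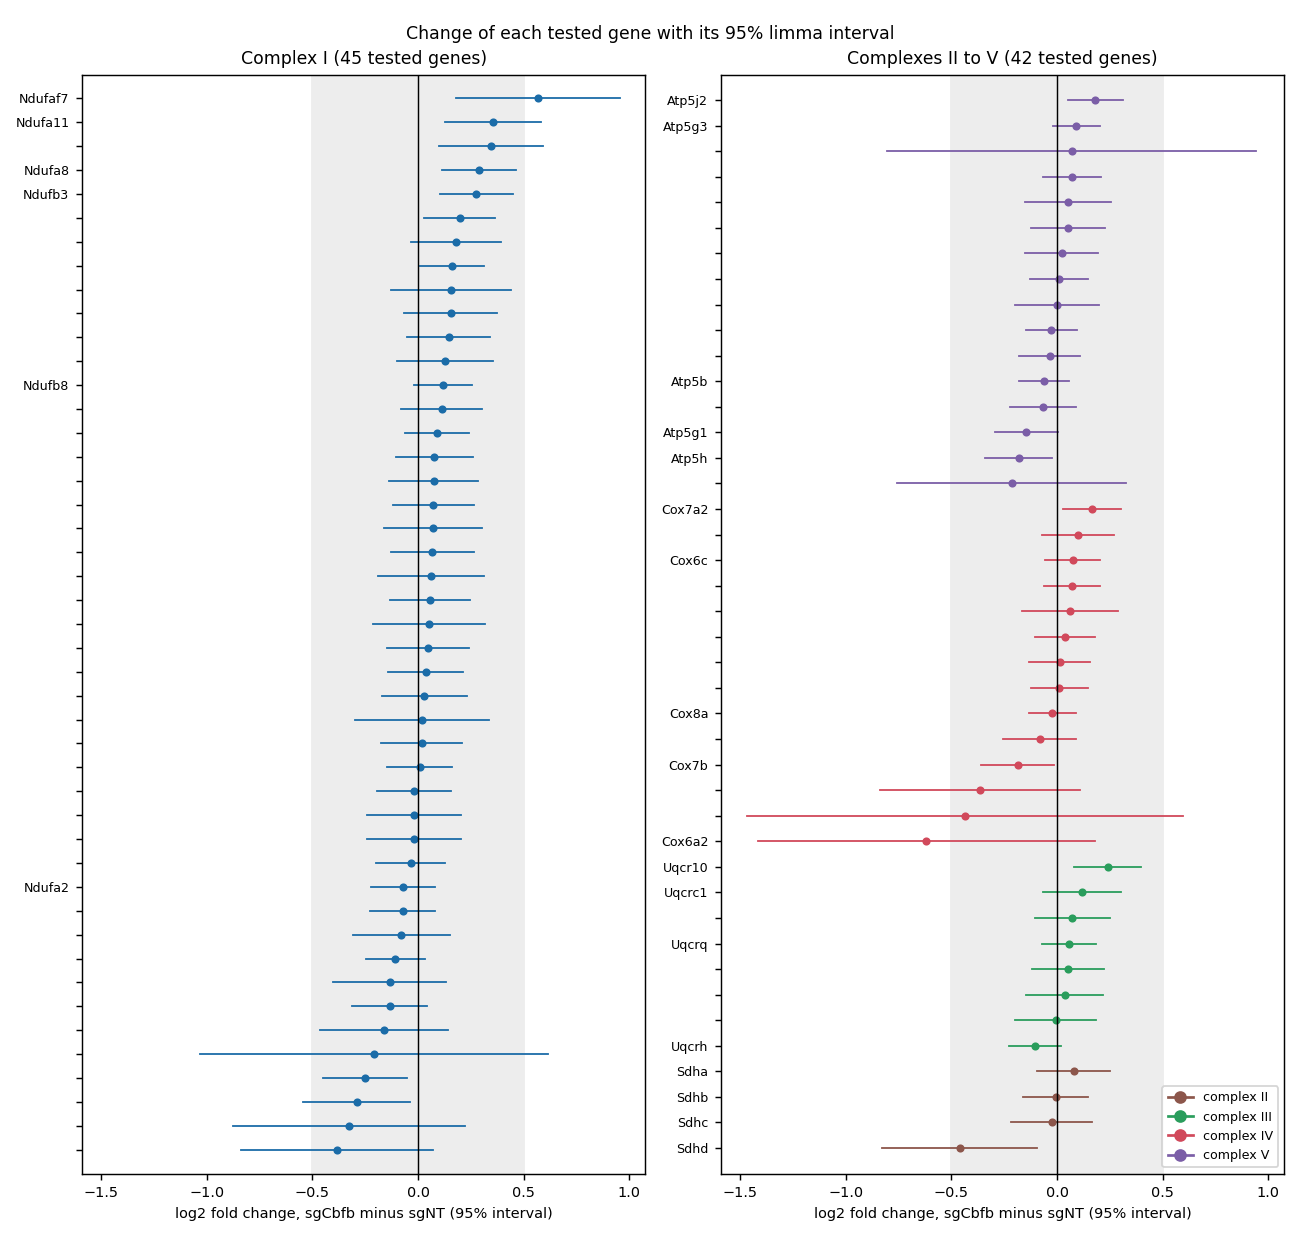
Each row is a tested gene (names are given for 24 members chosen by the naming rule), with its log2 fold change (sgCbfb minus sgNT) as a point and the 95% limma interval as a line, by complex; the grey band runs from -0.5 to 0.5. For 74 of 87 genes the whole interval lies in the band, and Cox6a2, with few reads, has among the widest intervals.

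QuantSeq counts transcript 3′ ends, so that levels can be set side by side without dividing by gene length. They (log2 CPM, mean of 4 libraries) descended from Cox8a (10.21) and Atp5g3 (9.96) to Atp5b (9.36), Atp5a1 (9.19), Cox6c (9.17) and Uqcrh (8.88). Cox8a was above Atp5g3 in every library and Atp5g3 above Atp5b in every library. Atp5a1 and Cox6c, in contrast, changed order between libraries. At the lower end, 8 tested members had a mean under 4 log2 CPM: Ndufaf6, Cox7b2, Ndufaf1, Atp5g2, Atp5s, Cox6a2, Ndufaf3 and Cox7a1. Atp5s varied most within the groups, with 9 and 19 reads in sgNT and 26 and 8 in sgCbfb libraries.

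**Figure D4:**
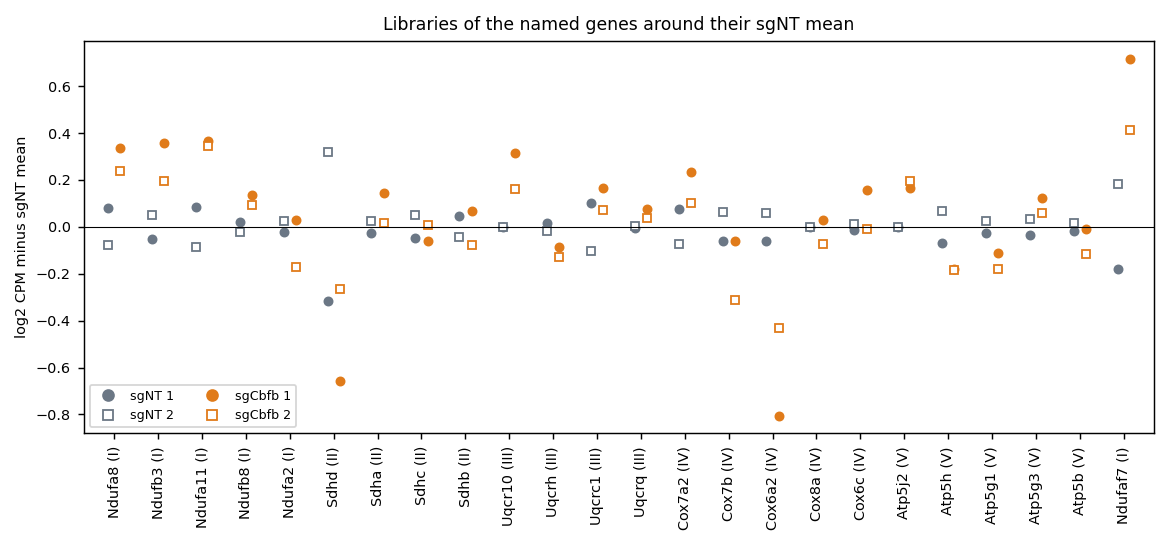
Each library's log2 CPM is plotted as its difference from the sgNT mean of that gene, for 24 members chosen by the naming rule, with sgNT in grey and sgCbfb in orange (filled circles, replicate 1; open squares, replicate 2). Ndufa8, Ndufb3, Ndufa11, Uqcr10 and Atp5j2 have both sgCbfb libraries above both sgNT libraries, whereas the sgNT libraries of Sdhd lie far apart (5.12 and 5.75).

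Genes around the complexes were followed from lists of their textbook members. Of 5 further nuclear genes of the chain and the ATP synthase (Cyc1, Cycs, Usmg5, Atpif1 and 2010107E04Rik), 0 passed the test. The smallest p was that of 2010107E04Rik, an ATP synthase subunit gene (log2 fold change 0.14, limma adjusted p = 0.475; 0.041 without sgNT library 1), and Cyc1, the cytochrome c1 of complex III, was at 7.68 and 7.74 log2 CPM in sgNT and 7.83 and 7.77 in sgCbfb cells. Of 15 mitochondrially encoded genes sought by symbol, the 13 protein genes were not among the genes listed. The other 2, the ribosomal RNA genes mt-Rnr1 and mt-Rnr2, were listed with 0 reads. The nuclear transcripts could therefore not be set against mitochondrial ones. Of 36 assembly factors outside the symbol rule, 1 rose and 0 fell, a share close to the 2.83% of all tested genes. This was Uqcc2, an assembly factor of complex III, at 7.15 and 7.19 log2 CPM in sgNT and 7.45 and 7.47 in sgCbfb cells (log2 fold change 0.29, SE 0.078, limma adjusted p = 0.0445). Its log2 fold change stayed between 0.25 and 0.30 in every alternative fit. The call was lost in 11 of 14, among them median centring (limma adjusted p = 0.0625) and voom with TMM scaling (adjusted p = 0.0746), and 3 of the 11 are the fits that called 0 genes in all.

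In the tricarboxylic acid cycle 0 of 13 genes passed the test, and Idh3a, a subunit of the NAD-dependent isocitrate dehydrogenase, had the smallest p. It was at 7.28 and 7.52 log2 CPM in sgNT and 7.19 and 7.20 in sgCbfb cells (log2 fold change -0.21, limma adjusted p = 0.241), so that most of the difference came from sgNT library 2. Among 13 listed regulators of mitochondrial biogenesis 0 passed. Tfb1m, a mitochondrial ribosomal RNA methyltransferase, was lowest by p with a log2 fold change of -0.78 (SE 0.281, limma adjusted p = 0.163) on 35 and 40 reads in sgNT and 27 and 18 in sgCbfb libraries. Nrf1 was at a log2 fold change of -0.082 (-0.032 without sgNT library 1) and Gabpa at -0.097 (0.15 without sgNT library 2), and Ppargc1a had between 4 and 6 reads. The carriers and channels that exchange ATP, ADP and phosphate (0 of 6), the other enzymes that feed electrons to coenzyme Q (0 of 7) and coenzyme Q synthesis (0 of 12) also had 0 calls. The genes with the smallest p in these lists were Vdac3 (log2 fold change 0.21), Sqor (0.68) and Coq2 (-0.43), with adjusted p-values of 0.493, 0.290 and 0.268 from limma. Sqor rested on 15 to 38 reads, with the fewest in sgNT library 2, and was at 0.35 without that library.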

How the data were processed

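The deposited values were log2 CPM of 4 QuantSeq 3′ libraries, 2 per group. Per the paper's methods and the labels, the authors used cutadapt 1.9 for trimming, HISAT2 2.1.0 for alignment (GRCm38/mm10), featureCounts for counting, and voom with limma. The submitters' notes give featureCounts 2.0.1 and the methods another version. The handling of reads matching several genes is not given in the sources used here. Many of these genes have processed pseudogenes, so this could change their values. The tool that made the log2 values is not given in the sources used here. The values fit a prior count of 2 at the mean library size, and with it at least 99.99% of the deposited log2 values above the floor gave reads within 0.1 of a whole number.

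The test was limma 3.58.1 (R 4.3.3) with a mean-variance trend on the log2 values, two-sided, over the 12207 genes that reached a log2 CPM of 0 in 2 or more libraries, with Benjamini-Hochberg adjustment over all of them and a threshold of 0.05. The members and lists were chosen with earlier results of these data known. The genes described were the 3 with the smallest p and the 2 with the highest level in each complex. Also described were the extreme fold changes, complex II, restricted forms and, in other lists, called genes or the smallest p. Ndufv1, Ndufv2, Ndufs3, Ndufb6, Ndufs5, Ndufaf6, Cox4i1, Cox6a1 and Cox6b1 were named after their values were seen. So were Atp5a1, Atp5c1, Atp5d, Atp5e, Atp5g2, Atp5s, Cyc1, Nrf1, Gabpa and Ppargc1a. Positions are from RefSeq (GRCm38.p6), with 92 members matched by symbol and 2 by a synonym; promoter windows were found for 76. Results for 1 gene are not reported here. Figures used matplotlib 3.10.9.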

Additional observations from a re-analysis of the deposited data

How the results depend on the processing

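Across the alternatives, the tested members stayed close to 0 as a group. The median log2 fold change of all members was 0.036, and with each library left out in turn it ran from -0.034 (without sgCbfb library 1) to 0.066. It ran from -0.0014 to 0.083 for complex I, -0.034 to 0.0042 for complex II and -0.052 to 0.047 for complex IV, the lowest again without sgCbfb library 1. It ran from 0.018 to 0.093 for complex III and -0.045 to 0.032 for complex V, the lowest without sgNT library 1. Against 0 higher and 0 lower members, a minimum of 5 CPM gave 4 higher, and leaving out single libraries gave 0 higher and from 0 to 1 lower. Without sgCbfb library 1, without sgCbfb library 2 and with no trend, 0 of 12207 genes were called, Cbfb included, so that the 0 for members there says nothing about stability. Of all genes, 201 were called without sgNT library 1 and 179 without sgNT library 2. With the replicate block, 3 were higher (Ndufa8, Ndufb3 and Ndufa11) and 1 was lower (Sdhd), where 4.38% of all genes passed. Deviations from the group means had a correlation of -0.0042 between libraries of the same number. With 2 libraries in a group the deviations mirror each other, so this is a single value. It cannot show whether libraries of the same number were handled together. The members had 0 and 0 calls with quantile normalization (83 genes called in all), median centring (364), ribosomal RNA genes left out (315), vooma weights (388), no filter (262), a prior count of 0.5 (293) and voom with TMM scaling (415), against 345 genes as reported, and also at a threshold of 0.01 or for structural subunits alone. Some of the 24 members chosen by the naming rule changed sign with single libraries left out. These were Ndufa2 (-0.17 to 0.031), Sdhb (-0.078 to 0.067), Sdhc (-0.073 to 0.025), Cox8a (-0.075 to 0.031) and Cox6c (-0.0094 to 0.16). Members outside that rule also changed sign, among them Ndufv2 (-0.0069 to 0.23) and Atp5s (-0.54 to 0.68). The cause of these changes was not tested. The 2 planned count models were not run; voom was used on the recovered reads. Depth limits genes of few reads, such as Cox6a2 and Cox7a1.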
